A study of Mus musculus with 34 samples.

Results

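The mitochondrial ribosomal protein genes were described here as the 78 genes whose symbol starts with *Mrpl* or *Mrps* and a digit, 49 *Mrpl* and 29 *Mrps*, out of 23109 genes in the deposited RNA-Seq files. Where a gene had several RefSeq transcripts (7 of the 78), the one with the largest average RPKM of the 14 libraries stood for it. RPKM sets reads relative to transcript length in kilobases and to library depth, so that levels of genes and libraries share a scale. All members were kept, of which 77 had a mean RPKM of at least 1 and 76 a mean of at least 5.

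The study asked how depletion of H3K36 methylation affects brown fat cell formation. All 14 libraries came from brown preadipocytes of newborn C57BL/6J mice that were immortalized with SV40T. The labels give these cells a floxed glucocorticoid receptor gene (GR-flox/flox) with a Vec or Cre virus, while the paper describes WT mice. In the adipogenesis experiment, cells with retroviral H3.3 WT or H3.3K36M, a histone mutant that lowers H3K36 methylation, were taken at D0, D2 and D7 (6 libraries). In the ligand experiment, WT or K36M cells with retroviral PPARγ received DMSO, at 0 h by the labels, or the PPARγ ligand rosiglitazone (Rosi) for 24 h (4 libraries). In the knockdown experiment, cells carried a lentiviral control shRNA (Ctrl) or an shRNA to *Nsd2* (KD), which encodes an H3K36 methyltransferase, and were taken at D0 and D2 (4 libraries). The adipogenic medium held insulin, T3, IBMX, dexamethasone and indomethacin for 2 days and then insulin and T3. Each condition had 1 library, so no difference between conditions has a replicate check and no p-value can be given.

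Mitochondria carry a ribosome of their own, which makes only the few respiratory chain proteins encoded by mitochondrial DNA. Its RNA comes from the mitochondrial genome, but every protein of its small and large subunit is encoded in the nucleus and imported. Most *Mrps* genes encode proteins of the small subunit and *Mrpl* genes those of the large. The subunit classes below go by subunit and not by symbol, so a few *Mrps* genes are not in the small subunit classes. Some of the ribosomal proteins have a bacterial counterpart, and others exist only in mitochondria. Brown adipocytes are known for their many mitochondria, whose respiratory chain feeds heat production.

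Mapped reads ranged from 12213559 to 24365867 per library. Reads behind each RPKM were recovered for all 78 members, and the 95% intervals below are Clopper-Pearson intervals of these reads. Such an interval holds no more than the counting error between a pair of libraries and says nothing of the variation between cultures. *Higher* and *lower* are used for a member when the interval of its ratio excluded 1, and for the group they refer to its median ratio. *Nsd2* had an RPKM of 19.9 and 29.0 in Ctrl cells at D0 and D2 and of 5.85 and 7.01 in KD cells. *Ucp1*, the defining marker of brown adipocytes, was at or below 0.194 RPKM in all libraries. The summed RPKM of 5 adipocyte markers (*Fabp4*, *Adipoq*, *Plin1*, *Cidec*, *Ucp1*) at D0, D2 and D7 was 40.2, 3431 and 3311 for WT and 19.6, 1552 and 185 for K36M. Rosi took this sum from 120 to 2921 for WT and from 72.6 to 1192 for K36M. It went from 15.1 at D0 to 1311 at D2 for Ctrl and from 7.55 to 36.3 for KD. *Fabp4* made up most of this sum in each library. In WT cells *Fabp4* was at 3249 RPKM at D2 and 2644 at D7. *Adipoq* went from 6.16 to 287 between these days, *Plin1* from 36.8 to 144 and *Cidec* from 138 to 236. The sum of 5 preadipocyte markers (*Pdgfra*, *Dlk1*, *Ebf2*, *Prdm16*, *Cd34*) at D0, D2 and D7 was 68.4, 40.0 and 95.4 for WT and 43.8, 51.6 and 108 for K36M. It lay between 19.3 and 26.6 in the ligand experiment, and at D0 and D2 it was 66.2 and 27.9 for Ctrl and 179 and 34.1 for KD. Lists of macrophage, endothelial and muscle markers summed to at most 3.07, 2.47 and 4.01 RPKM in any library. In bulk RNA, fewer cells of a type and less RNA per cell cannot be told apart.

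As a group, the members were expressed above the typical gene. The median of their mean RPKM was 19.2, against 9.93 over the 11899 genes with a mean of at least 1, and 74 of the 78 lay between 5 and 50. The 5 highest were *Mrps6* (mean RPKM 83.6), a small subunit protein of the platform, *Mrpl12* (56.7), the multicopy stalk protein that receives translation factors, *Mrpl33* (48.7), *Mrpl52* (45.7) and *Mrpl13* (42.5). The 3 lowest were *Mrpl11* (5.83), *Mrpl35* (4.97) and *Mrpl23* (0.699). RPKM is set per length, and the RefSeq models used differ widely in length, from 407 to 6712 nucleotides. *Mrpl11* was counted over 2882 nucleotides and *Mrpl17*, an exit tunnel protein with a mean RPKM of 7.09, over 6712, so levels between members depend on these models. Together the members took between 0.139% (Ctrl cells at D0) and 0.243% (WT cells at D2) of the mapped reads of a library.

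The range of each member over the 14 libraries was described as well. The highest library stood above the lowest by 2.29-fold in the median member, and by under 2-fold in 25 members. The narrowest range was that of *Mrps9*, from 9.30 to 13.1 RPKM, followed by *Mrpl3* (18.7 to 26.9) and *Mrpl39* (18.4 to 27.1). Between any 2 libraries compared, 57 of the 78 members never differed by over 2-fold, and 20 members with a mean RPKM of at least 5 did so at least once. The ranges were not computed for all genes, so they do not show whether the members vary less than other genes.

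**Figure D1:**
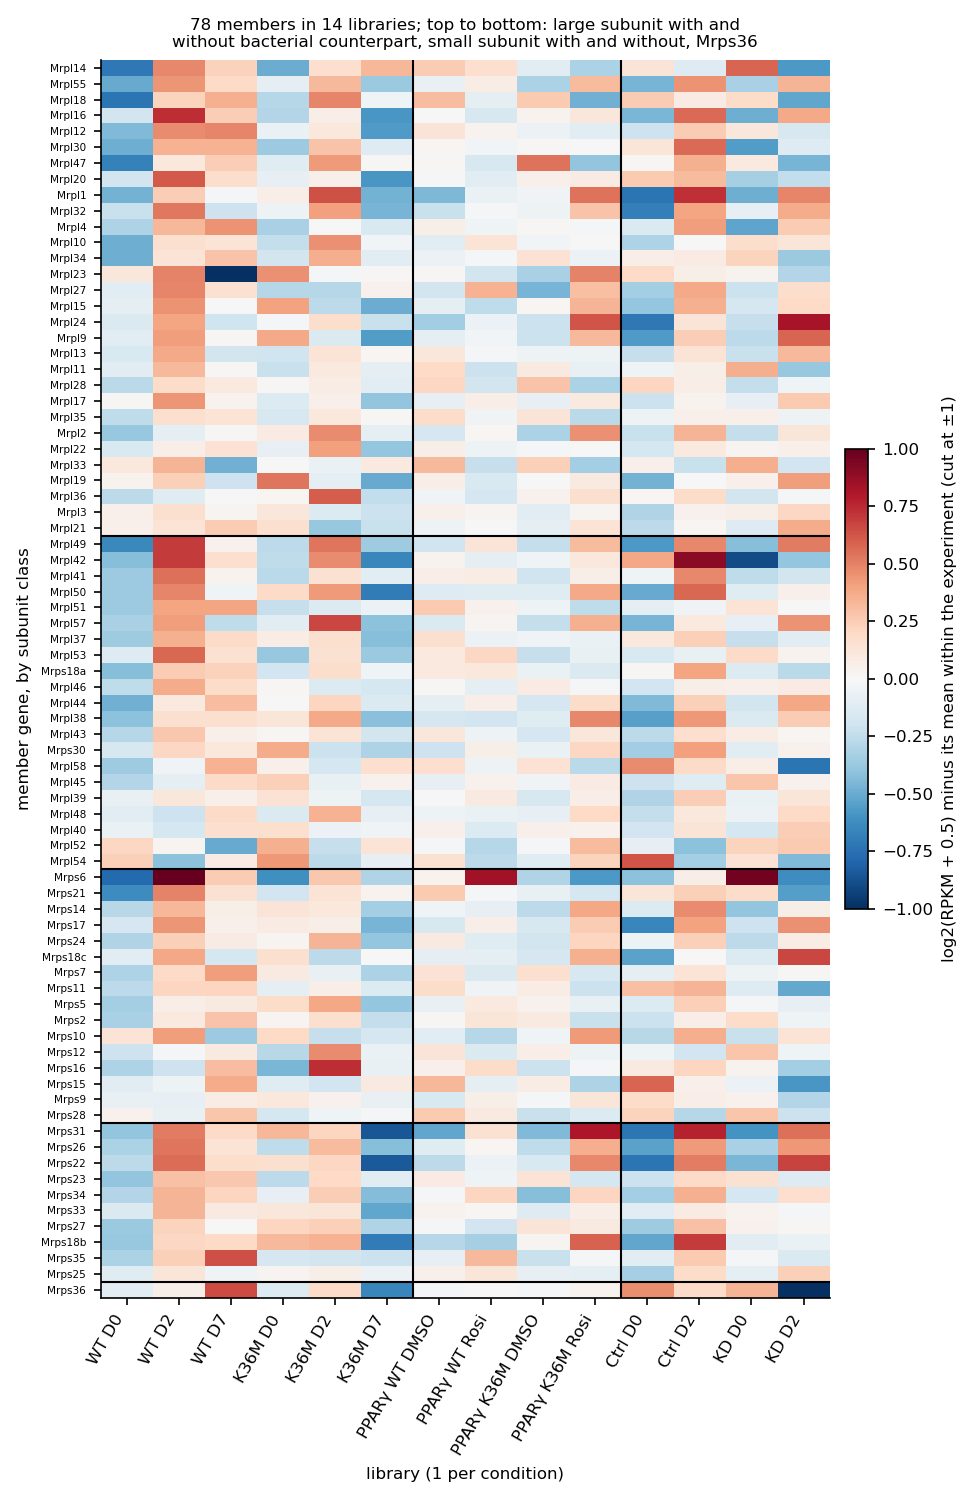
Level of the 78 members in the 14 libraries, as log2(RPKM + 0.5) minus its mean within each of the 3 experiments (color, cut at ±1). Black lines part the experiments and the subunit classes, and the WT D2 column is red for most members while the K36M D7 column is blue.

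The members sit on 17 chromosomes, the most (11) on chromosome 11. In the GENCODE M1 annotation (mm9), 29 of 78 (37.2%) have a protein-coding gene on the other strand that starts within 1000 bases of their own start, against 10.8% of 22380 protein-coding genes. This background was not limited to genes with a mean RPKM of at least 1. Such neighbors of members include *Ndufb5*, a complex I subunit, beside *Mrpl47*, *Sars2*, the mitochondrial seryl-tRNA synthetase, beside *Mrps12*, and *Peo1*, the mitochondrial DNA helicase, beside *Mrpl43*. These were picked for their mitochondrial roles. Other neighbors include *Tcp1* beside *Mrpl18*, *Psma2* beside *Mrpl32* and *Hira* beside *Mrpl40*. *Mrpl46* (chromosome 7, 85920122 to 85928417, minus strand) and *Mrps11* (chromosome 7, 85928005 to 85937875, plus strand) form such a pair of 2 members and overlap at their starts. The library kit kept no strand, so reads of overlapping genes cannot be told apart, and 27 members overlap an exon of another gene.

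Promoters of 69 of the 78 members were found in the RefSeq table (GRCm38.p6, 250 bases before to 50 after each start). They were searched on both strands for 5 motifs of factors known to act on genes of mitochondria, growth or energy use. CCGGAAG, the core of GABPA sites, was in 25 of the 69 (36.2%), against 19.5% of the promoters of genes with a mean RPKM of at least 1 and 9.12% of all promoters in the table. AAGATGG (YY1) was in 13 (18.8%, against 7.69% and 6.48%) and GCATGCG (NRF1) in 8 (11.6%, against 7.02% and 3.64%). CACGTG, the E box, was in 5 members (7.25%, against 10.7% and 7.24%), and AAGGTCA, a core of ESRRA sites, in 4 (5.80%, against 2.88% and 4.66%). CCGGAAG and AAGATGG can overlap by AAG, and GCATGCG can overlap its own reverse complement, CGCATGC. A match is only a match of letters.

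The 100 bases before the start are given for 6 members, the 2 with the largest increase from D0 to D2 in WT cells (*Mrps6*, *Mrpl49*), and 4 that changed over 2-fold in some comparison or held a motif more than once (*Mrps22*, *Mrps16*, *Mrpl32*, *Mrpl43*). They are read 5′ to 3′ toward the gene from GRCm38.p6 with RefSeq starts. Capitals mark CCGGAAG or GCATGCG on either strand.
Mrps6 (chr16:92058236-92058335, plus strand): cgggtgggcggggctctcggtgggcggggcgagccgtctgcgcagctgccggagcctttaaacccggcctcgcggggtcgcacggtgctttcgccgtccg
Mrpl49 (chr19:6057756-6057855, minus strand): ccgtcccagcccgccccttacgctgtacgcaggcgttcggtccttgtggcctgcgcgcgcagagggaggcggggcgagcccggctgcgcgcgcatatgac
Mrps22 (chr9:98601680-98601779, minus strand): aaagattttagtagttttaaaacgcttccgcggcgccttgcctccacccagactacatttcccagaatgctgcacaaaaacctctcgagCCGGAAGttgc
Mrps16 (chr14:20393491-20393590, minus strand): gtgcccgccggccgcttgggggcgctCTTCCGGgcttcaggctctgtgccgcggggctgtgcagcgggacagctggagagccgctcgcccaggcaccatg
Mrpl32 (chr13:14613038-14613137, minus strand): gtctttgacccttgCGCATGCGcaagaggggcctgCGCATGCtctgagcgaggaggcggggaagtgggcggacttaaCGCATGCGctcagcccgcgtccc
Mrpl43 (chr19:45006443-45006542, minus strand): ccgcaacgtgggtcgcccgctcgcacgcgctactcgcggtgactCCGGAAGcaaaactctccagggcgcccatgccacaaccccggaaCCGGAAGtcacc

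The stretch before *Mrpl32* holds GCATGCG or its reverse complement at 3 places, that before *Mrpl43* holds CCGGAAG at 2, and the stretches before *Mrps6* and *Mrpl49*, the members that changed most, hold neither. In WT cells the median change from D0 to D2 on the log2 scale was 0.62 for the 25 members with CCGGAAG and 0.58 for the 44 without. For the other 4 motifs it lay between 0.50 and 0.56 with the motif and between 0.61 and 0.62 without it. In Ctrl cells the median was 0.28 with CCGGAAG and 0.43 without, 0.24 and 0.38 for AAGATGG, 0.44 and 0.37 for GCATGCG, 0.18 and 0.37 for the E box, and 0.15 and 0.37 for AAGGTCA. These groups hold as few as 4 members, and no difference by motif was tested.

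In WT cells the members were higher at D2 than at D0 as a group. Of the 78 members, 72 (92.3%) had a ratio above 1, against 49.4% of all genes, and the interval was above 1 for 62 and below 1 for 1 (36.6% and 39.3% of all genes). The median log2 ratio was 0.58, against -0.01 for all genes. Over 1.5-fold, 38 members (48.7%) were up and 1 was down, against 18.1% and 25.1% of all genes. Over 2-fold, 5 members were up and 0 down, against 8.92% and 16.4% of all genes. With libraries scaled by median ratios instead, 10 members were over 2-fold up, against 9.95% of all genes.

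The 5 members over 2-fold were *Mrps6*, *Mrpl49*, *Mrpl14*, *Mrpl42* and *Mrps21*. *Mrps6* (chromosome 16, 92058515 to 92112472, plus strand) had an RPKM of 46.8 at D0 and 182 at D2, a log2 ratio of 1.96 (95% interval 1.84 to 2.07). *Mrpl49*, a large subunit protein without bacterial counterpart (chromosome 19, 6053630 to 6057758), was at 19.2 and 49.6 (log2 ratio 1.37). *Mrpl14* (15.2 to 35.4 RPKM), *Mrpl42* (22.6 to 49.9) and *Mrps21* (18.5 to 40.8) had log2 ratios of 1.22, 1.14 and 1.14. Of the windows of 32 bases of the *Mrps21* and *Mrpl42* transcripts, 58.0% and 37.3% are also found elsewhere in the genome, and their part in these values was not tested.

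The lowest ratio belonged to *Mrpl54*, a mitochondria-specific large subunit protein. The RPKM of *Mrpl54* was 49.0 at D0 and 31.0 at D2 (log2 ratio -0.66, interval -0.85 to -0.47), and it was the only member whose interval lay below 1. It was also lower at D2 than at D0 in K36M cells (56.3 and 34.5) and Ctrl cells (35.1 and 17.8), and in KD cells *Mrpl54* had a log2 ratio of -0.60. The next lowest in WT cells were *Mrpl52*, *Mrps28* and *Mrpl40*, with log2 ratios of -0.18, -0.12 and -0.11 and intervals that included 0.

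By role, the median log2 ratio in WT cells was 0.71 for the 4 stalk members (*Mrpl1*, *Mrpl10*, *Mrpl11*, *Mrpl12*), of which *Mrpl12* had the largest value, from 44.4 to 84.1 RPKM. It was 0.50 for the 8 members around the exit tunnel, where new proteins leave the ribosome toward the inner membrane. *Mrpl47* (4.72 to 8.46 RPKM) and *Mrpl44* (8.14 to 12.4) had log2 ratios of 0.84 and 0.61, *Mrpl23* had 0.62 from 8 and 11 reads with an interval that included 0, and *Mrpl45*, which anchors the ribosome to the membrane, was at 10.9 and 12.6 (log2 ratio 0.20). The 10 small subunit members without bacterial counterpart had a median of 0.63 with 8 over 1.5-fold up, and the 16 with a counterpart 0.47 with 4 over 1.5-fold. Among the 10 was *Mrps33*, which rests on 35 reads at D0 and 48 at D2. The 30 large subunit members with and the 21 without a counterpart had medians of 0.59 and 0.61.

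**Figure D2:**
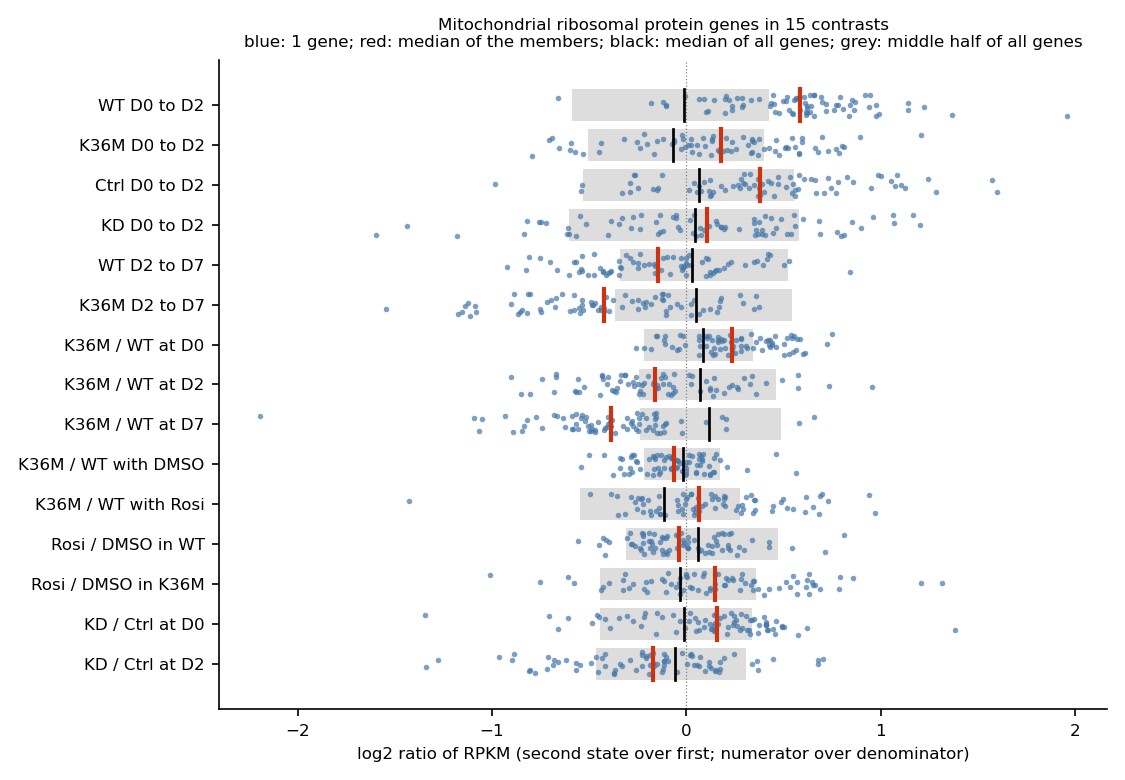
Log2 ratio of RPKM of each member (blue points) in the 15 contrasts between 2 libraries, with the median of the members (red), the median of all genes with a mean RPKM of at least 1 (black) and their interquartile range (grey). The red line lies to the right of the grey box in WT cells from D0 to D2 and to its left for K36M against WT at D7. *Mrpl23* is not drawn where a library is at 0.

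In Ctrl cells of the knockdown experiment, 65 of 78 members had a ratio above 1 from D0 to D2, against 53.6% of all genes, and the median log2 ratio was 0.38, against 0.07. Over 2-fold, 10 members were up and 0 down, against 11.0% and 15.4% of all genes. They were *Mrpl1*, *Mrps31*, *Mrps22*, *Mrps18b*, *Mrpl50*, *Mrpl32*, *Mrps17*, *Mrpl49*, *Mrpl16* and *Mrpl38*. The largest ratios were those of *Mrpl1* (3.27 to 9.90 RPKM, log2 ratio 1.60, interval 1.27 to 1.93) and *Mrps31* (6.13 to 18.2, log2 ratio 1.57, interval 1.33 to 1.82), a mitochondria-specific small subunit protein. *Mrps22*, whose human counterpart is mutated in a respiratory chain deficiency, was at 9.66 and 23.6 (1.29, interval 1.06 to 1.51). Of these 10, only *Mrpl49* was also over 2-fold in WT cells, and the share of all genes over 2-fold in both was not computed. Longer transcripts had higher ratios in this pair of libraries (Spearman rho over the 78 members 0.39 with length and -0.36 with GC content, against 0.02 and -0.15 in WT cells), and the part of either in these values was not tested. The Spearman coefficient with length was also 0.31 for K36M against WT at D0 and 0.30 in KD cells from D0 to D2, and that with GC content was -0.36 in KD cells from D0 to D2 and 0.40 in WT cells from D2 to D7.

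The change was shared in part by WT and Ctrl cells, which have no library in common. A ratio above 1 in both WT and Ctrl cells was found for 63 of 78 members, against 37.7% of all genes, and a ratio over 1.5-fold in both for 17, against 10.7%. Across the 78 members, the log2 ratios in WT and Ctrl cells had a Pearson r of 0.45 and a Spearman rho of 0.41, and across all genes r was 0.73. Genes are not independent replicates, and each value shares its library with all others.

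K36M cells showed a smaller change from D0 to D2. The median log2 ratio of the members was 0.18, against -0.07 for all genes, with 53 above 1 (45.9% of all genes). Past 1.5-fold, 12 were up (19.0%) and 6 were down (21.4%). None was over 2-fold down (9.91%). The change was smaller than in WT cells for 68 of 78 members, against 50.1% of all genes. The one member over 2-fold up was *Mrps16* (chromosome 14, 21210453 to 21212777, minus strand), with an RPKM of 33.7 at D0 and 77.8 at D2 (log2 ratio 1.21, interval 1.02 to 1.40), against 9.56% of all genes. In WT cells *Mrps16* was at 37.4, 40.1 and 57.8 at D0, D2 and D7, and 37.4% of its 32-base windows recur in the genome. *Mrps22* was at 20.4 and 21.2 RPKM in K36M cells and at 15.1 and 27.1 in WT cells, and *Mrps31* at 20.3 and 18.7 against 12.1 and 23.2, so that both started higher and ended lower in K36M cells.

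Set against WT cells on the same day, the members were higher in K36M cells at D0 and lower at D2. At D0 the median log2 ratio was 0.24, against 0.09 for all genes, and 64 of 78 were above 1 (58.0% of all genes). Over 1.5-fold, 4 members were up and 0 down (11.2% and 11.8% of all genes), and none was over 2-fold (3.69% up and 5.85% down). At D2 the median was -0.16, against 0.07, and 25 of 78 were above 1 (56.0%). Over 1.5-fold, 7 were down and 2 up (9.17% and 20.0%), and none was over 2-fold in either direction (11.0% up and 3.82% down among all genes). This comparison has no test for want of replicates, and the interval lay below 1 for 35 members and above 1 for 12 (27.0% and 36.8% of all genes).

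Among members with a mean RPKM of at least 5, the lowest at D2 were *Mrps6* (182 RPKM in WT and 97.2 in K36M cells, log2 ratio -0.90, interval -1.01 to -0.80), *Mrpl27* (15.8 and 9.07, -0.80), *Mrpl15* (15.8 and 9.45, -0.74) and *Mrpl16* (39.4 and 24.6, -0.68). The highest were *Mrps16* (40.1 and 77.8, log2 ratio 0.96), *Mrpl36* (29.3 and 48.8, 0.73), *Mrpl2* (33.8 and 50.3, 0.57) and *Mrpl48* (9.59 and 14.3, 0.57). *Mrpl2* and *Mrpl36* encode large subunit proteins with bacterial counterparts. The windows of 32 bases found elsewhere in the genome made up 64.4% of *Mrpl27* and 57.5% of *Mrpl48*. The adipocyte markers summed to 3431 RPKM in WT and 1552 in K36M cells at D2, mostly from *Fabp4* (3249 and 1473). *Cidec* (138 and 54.0) and *Plin1* (36.8 and 14.2) went the same way. *Adipoq* (6.16 and 10.6) went the other way, and *Ucp1* was at or below 0.194. The part of these markers in the values above was not tested.

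From D2 to D7 the members were lower, more so in K36M cells. In WT cells the median log2 ratio was -0.15, against 0.03 for all genes, with 8 over 1.5-fold down and 1 up (13.6% and 23.3%). Over 2-fold, 1 member was down and 0 up (4.83% and 14.4%), and this was *Mrpl23*, whose 11 reads at D2 were followed by 0 at D7. The lowest ratios of the others were those of *Mrps6* (182 to 95.8 RPKM, log2 ratio -0.92), *Mrpl33* (58.9 to 33.2, -0.83), *Mrps10* (18.6 to 10.6, -0.81) and *Mrpl32* (45.3 to 26.9, -0.75). *Mrps16*, *Mrpl54* and *Mrps15* were higher at D7, with log2 ratios of 0.53, 0.50 and 0.43, and *Mrps36* had 0.84 from 12 and 15 reads, with an interval from -0.35 to 2.07.

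In K36M cells the median from D2 to D7 was -0.43, against 0.05 for all genes, with 24 members over 1.5-fold down and 0 up (15.3% and 23.5%). Over 2-fold, 8 were down and 0 up (6.41% and 13.5%). *Mrpl1* went from 12.5 to 5.55 RPKM (log2 ratio -1.18), *Mrpl50* from 30.2 to 13.5 (-1.16), *Mrpl42* from 42.5 to 19.3 (-1.14) and *Mrpl57* from 17.5 to 8.04 (-1.12). *Mrps31* went from 18.7 to 8.64 (-1.12), *Mrps18b* from 18.5 to 8.71 (-1.09) and *Mrps22* from 21.2 to 9.97 (-1.08). *Mrps36* was the eighth, at 9 and 3 reads, with an interval that included 0.

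At D7 the difference between K36M and WT cells was the widest of the adipogenesis experiment. Of the 78 members, 71 were below 1 and 7 above, where 59.0% of all genes were above 1, and the interval lay below 1 for 50 and above for 2 (24.7% and 40.2% of all genes). The median log2 ratio was -0.39, against 0.12 for all genes. Over 1.5-fold, 17 members were down and 2 up (13.6% and 20.8%). Over 2-fold, 4 were down (7.17% of all genes) and 1 was up (10.0%), the last being *Mrpl23*, at 0 reads in WT and 4 in K36M cells.

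*Mrps31* was at 18.4 RPKM in WT and 8.64 in K36M cells at D7 (log2 ratio -1.09, interval -1.37 to -0.82), *Mrpl12* at 84.9 and 40.5 (-1.07, interval -1.23 to -0.91) and *Mrps22* at 20.7 and 9.97 (-1.05, interval -1.34 to -0.77). *Mrps36* was the fourth, at 15 and 3 reads (-2.20, interval -4.63 to -0.38). *Mrpl52* and *Mrpl33* went the other way, at 23.7 and 37.4 RPKM (log2 ratio 0.66) and at 33.2 and 49.5 (0.58). The 10 mitochondria-specific small subunit members had the lowest median of the subunit classes at D7, -0.74 with 6 over 1.5-fold down, beside -0.38 for the 16 with a bacterial counterpart with 1 over 1.5-fold down. Among the 10 was *Mrps33*, which rests on 27 reads in WT and 14 in K36M cells. The adipocyte markers summed to 3311 RPKM in WT and 185 in K36M cells at D7, with 4 of the 5 over 2-fold lower in K36M cells and *Ucp1* at 1 read and 0, and their part in these values was not tested.

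**Figure D3:**
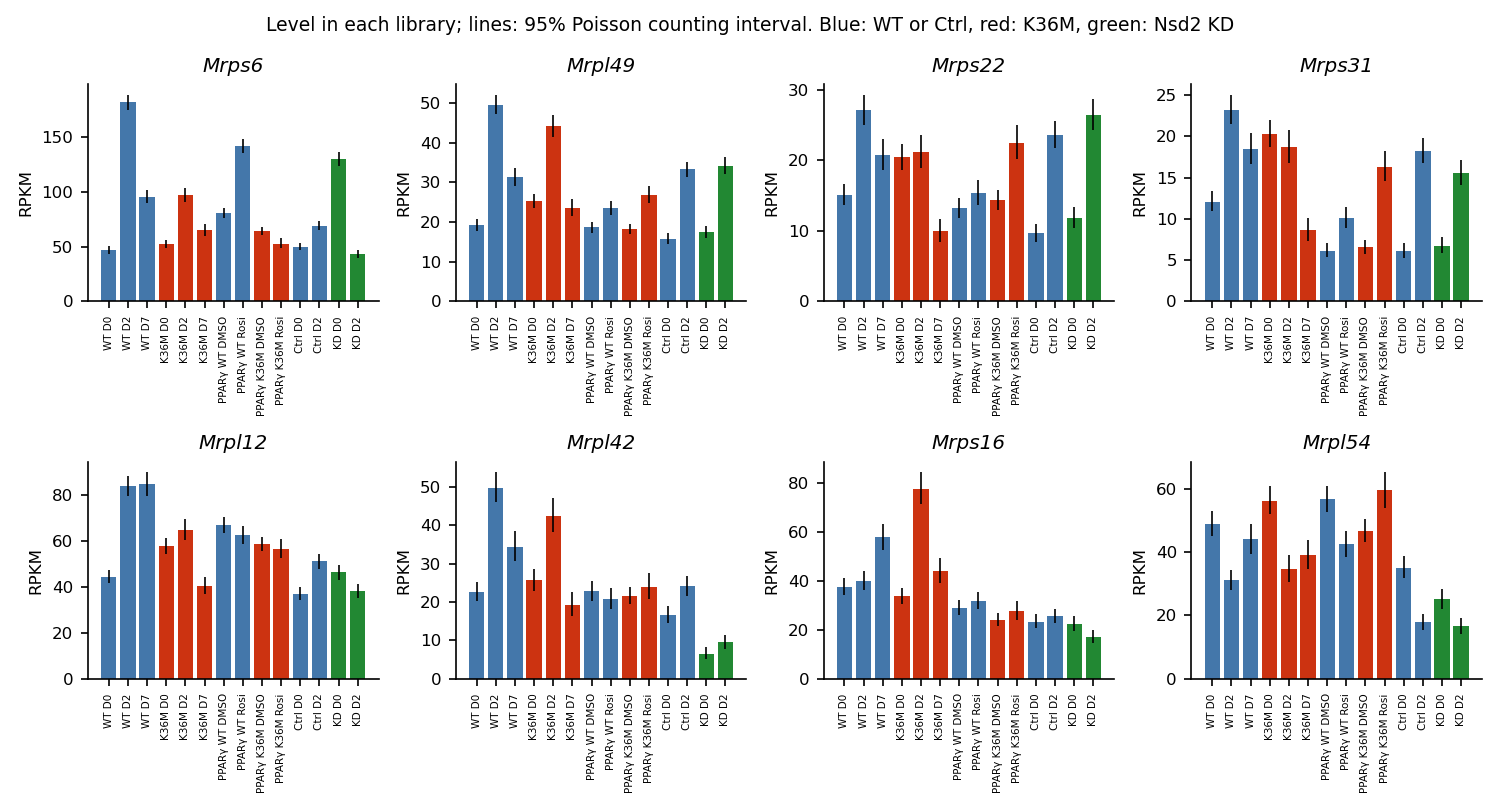
RPKM of 8 members in each of the 14 libraries (bars from 0, with 95% Poisson intervals of the reads as lines), in WT or Ctrl cells (blue), K36M cells (red) and *Nsd2* KD cells (green). *Mrps22*, *Mrps31* and *Mrpl12* are below their WT level in K36M cells at D7, *Mrpl42* is low in both KD libraries, and *Mrps6* stands out at WT D2, with Rosi in WT cells and at KD D0.

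In the ligand experiment, which holds PPARγ in all 4 libraries, the members as a group hardly moved with Rosi in WT cells. Rosi against DMSO gave a median log2 ratio of -0.04, against 0.06 for all genes. Above 1 were 35 of 78, against 54.0% of all genes, with 2 over 1.5-fold up (19.9%) and 0 down (12.6%). None was over 2-fold, where 9.77% of all genes were up and 4.71% down. The labels give DMSO a time of 0 h and Rosi 24 h. The paper can be read as giving DMSO for as long as Rosi, so it is not settled here whether time differs along with the ligand.

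*Mrps6* had the largest change, from 80.8 to 142 RPKM (log2 ratio 0.81, interval 0.71 to 0.91). It was followed by *Mrps31* (6.17 to 10.1, 0.71), *Mrpl27* (16.5 to 24.0, 0.54) and *Mrpl1* (3.76 to 5.05, 0.43). The lowest were *Mrpl33* (70.9 to 48.1, -0.56), *Mrpl11* (6.75 to 4.95, -0.45), *Mrps15* (28.4 to 21.1, -0.43) and *Mrpl54* (56.6 to 42.4, -0.42). The cells held abundant adipocyte marker RNA with Rosi (summed RPKM 2921, from 120 with DMSO) at nearly the same share of reads for the members, 0.184% in both libraries.

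In K36M cells Rosi against DMSO gave 0.15, against -0.03 for all genes, with 13 members over 1.5-fold up and 3 down (16.1% and 18.9%). Over 2-fold, 2 were up and 1 down (7.43% and 8.14%). *Mrps31* went from 6.55 to 16.3 RPKM (log2 ratio 1.32, interval 1.07 to 1.56) and *Mrpl47* from 9.13 to 4.53 (-1.01, interval -1.49 to -0.56), while the other one up, *Mrpl23*, rests on 10 and 12 reads. K36M against WT gave a median of -0.06 with DMSO and 0.06 with Rosi (-0.02 and -0.12 for all genes). With DMSO 27 of 78 were above 1 (47.3% of all genes), and no member was over 1.5-fold (7.52% up and 7.34% down) or 2-fold (4.37% up and 3.11% down). With Rosi 9 were up and 1 down over 1.5-fold (13.0% and 23.3%), the one down being *Mrps6*, at 142 RPKM in WT and 52.8 in K36M cells (log2 ratio -1.43, interval -1.57 to -1.28), which was also the only one over 2-fold (11.6% of all genes down, 5.96% up).

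In KD cells the change from D0 to D2 was small as a group and wide among members. The median log2 ratio was 0.11, against 0.04 for all genes, with 46 of 78 above 1 (51.8%), 13 over 1.5-fold up (24.9%) and 11 down (25.4%). It was smaller than in Ctrl cells for 62 of 78 members, against 50.4% of all genes. Over 2-fold, 4 members were up (12.0%) and 3 down (16.2%). Up were *Mrps31* (6.76 to 15.6 RPKM), *Mrps22* (11.8 to 26.5), *Mrpl24* (30.2 to 63.4) and *Mrpl1* (3.96 to 8.28), with log2 ratios of 1.20, 1.16, 1.07 and 1.06. Of these, *Mrps31*, *Mrps22* and *Mrpl1* were also over 2-fold up in Ctrl cells, and the share of all genes over 2-fold up in both was not computed. Down were *Mrps6* (130 to 43.0, log2 ratio -1.60, interval -1.73 to -1.46), *Mrps36* (11.9 to 4.39, -1.44) and *Mrpl14* (42.0 to 18.6, -1.18).

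Against Ctrl cells, the members were higher in KD cells at D0 (median log2 ratio 0.16, against -0.01 for all genes) and lower at D2 (-0.17, against -0.06). With median-ratio scaling the median at D2 was -0.090. Among preadipocyte markers, *Dlk1* was at 38.1 RPKM in Ctrl and 171 in KD cells at D0 and *Pdgfra* at 22.9 and 1.51, with 2 of the 5 over 2-fold higher and 1 lower in KD cells, and their part in these values was not tested. At D0, 2 were over 1.5-fold up and 4 down (13.4% and 19.7%). Over 2-fold at D0, *Mrps6* was up (to 130 RPKM in KD cells, log2 ratio 1.38, against 5.50% of all genes) and *Mrpl42* was down (16.6 and 6.55, -1.35, interval -1.74 to -0.96, against 11.0%). At D2, 3 were over 1.5-fold up and 14 down (12.3% and 20.4%), so the share of members down was near that of all genes. Over 2-fold at D2, 0 were up (4.58%) and 2 were down (10.5%), *Mrpl42* (24.1 and 9.52, -1.34, interval -1.66 to -1.02) and *Mrps36* (10.6 and 4.39, -1.28, interval -1.75 to -0.82).

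*Mrpl42*, a mitochondria-specific large subunit protein, was thus the one member over 2-fold lower in KD cells on both days, and its RPKM was between 16.6 and 49.9 in the 12 libraries without the *Nsd2* shRNA. Next lowest at D2 were *Mrpl58*, which releases stalled mitochondrial ribosomes (15.8 and 8.10 RPKM, log2 ratio -0.97), and *Mrps11* (12.2 and 6.57, -0.90). *Mrpl46*, the head-to-head neighbor of *Mrps11*, was at 7.38 and 7.48 in the same libraries (0.02, interval -0.32 to 0.36). The highest were *Mrpl24* (39.0 and 63.4, log2 ratio 0.70), *Mrpl52* (35.9 and 57.4, 0.68), *Mrps18c* (21.2 and 33.9, 0.68) and *Mrpl19* (6.39 and 8.71, 0.45). The adipocyte markers summed to 1311 RPKM in Ctrl and 36.3 in KD cells at D2, with 4 of the 5 over 2-fold lower and *Ucp1* at 1 read and 0, and their part in these values was not tested.

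The 2 perturbations did not order the members alike at D2. A ratio to the control below 1 in both K36M and KD cells was found for 35 of 78 members, against 25.2% of all genes, and an interval below 1 in both for 16, against 13.0%. The log2 ratios of K36M to WT and of KD to Ctrl at D2 had a Pearson r of -0.08 and a Spearman rho of -0.07 across the 78 members, and r was 0.08 across all genes.

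*Mrps6* was over 2-fold in 4 of the 15 contrasts, with the highest library at 182 RPKM (WT cells at D2) and the lowest at 43.0 (KD cells at D2). It shares exon sequence on the same strand with *Slc5a3*, the sodium-coupled myo-inositol transporter, so reads of the shared part cannot be assigned. *Slc5a3* was at 8.21, 39.1 and 23.1 RPKM in WT cells at D0, D2 and D7 and at 9.48, 15.2 and 16.0 in K36M cells. Rosi took *Slc5a3* from 6.58 to 22.3 for WT and from 6.57 to 3.58 for K36M. It was at 9.92 and 18.3 in Ctrl cells and at 20.2 and 4.62 in KD cells at D0 and D2. Both genes were thus highest in the same library and both were higher in KD than in Ctrl cells at D0 and lower at D2.

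Set beside 2 other groups of genes, the members stood between the respiratory chain and the cytosolic ribosome in WT cells from D0 to D2. The median log2 ratio was 1.03 for 85 nuclear-encoded respiratory chain subunits and 0.20 for 77 cytosolic ribosomal protein genes, against 0.58 for the members. For K36M against WT at D7 the respiratory chain subunits had -0.98, the members -0.39 and the cytosolic ribosomal proteins 0.04. For KD against Ctrl at D2 the medians were -0.58, -0.17 and -0.32, in the same order. With Rosi in WT cells the respiratory chain subunits had 0.26 and the cytosolic ribosomal proteins -0.42, while the members stayed at -0.04. The spread of each set in the plot of set medians is over genes, and no test of the difference was made. Of the 85 respiratory chain subunits, 82 to 84 had a ratio in each contrast. Some genes of these 2 comparison sets were far lower in the adipogenesis libraries than elsewhere. *Rpl19* was at 0.824 RPKM in WT cells at D0 and at 602 in PPARγ WT cells with DMSO. In the same libraries *Rps29* was at 2.28 and 394 and *Atp5g2* at 0.217 and 138. Others were not, such as *Rplp1* (801 and 546) and *Atp5b* (375 and 527). The part of genes low in this way in the set medians was not tested.

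**Figure D4:**
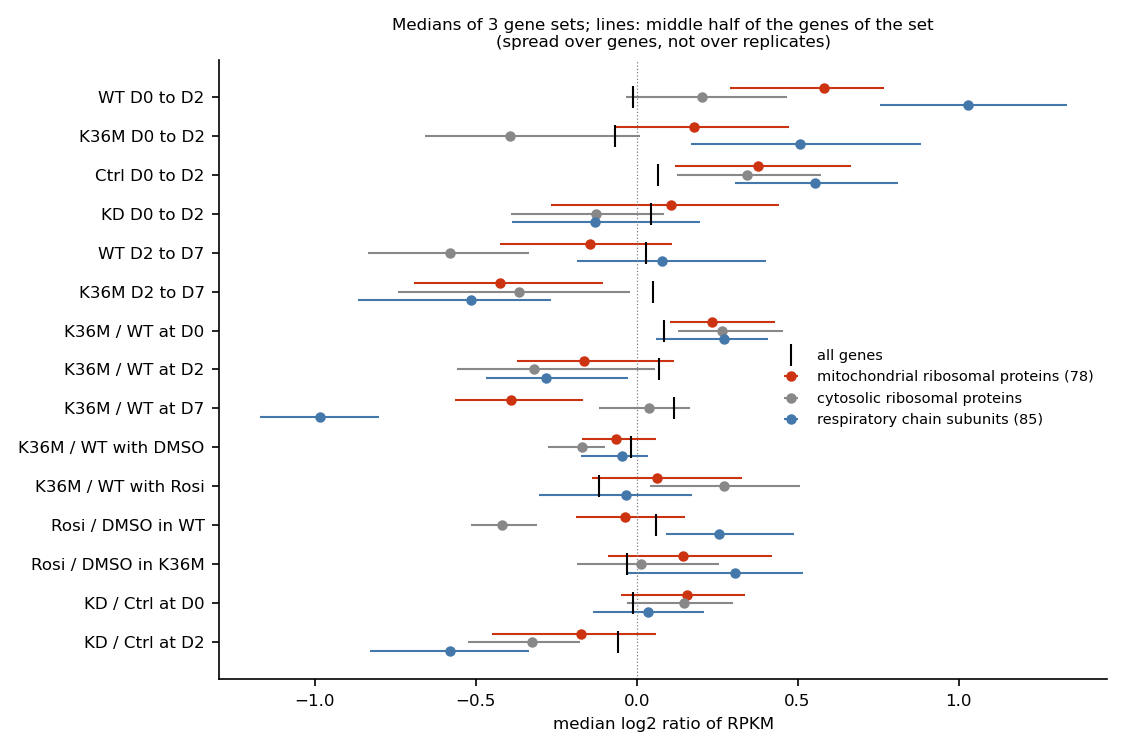
Median log2 ratio of RPKM in the 15 contrasts for the 78 members (red), 77 cytosolic ribosomal protein genes (grey) and 85 nuclear-encoded respiratory chain subunits (blue), with lines for the interquartile range of each set and black ticks for the median of all genes. The blue point is the farthest from 0 in WT cells from D0 to D2 and for K36M against WT at D7, with the red point on the same side.

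Other genes of mitochondrial translation were described as lists. In WT cells from D0 to D2, the 13 translation factors had a median log2 ratio of 0.63, with 8 over 1.5-fold up and 0 down. They were led by *Gfm2* (6.11 to 14.5 RPKM) and *Gfm1* (12.3 to 23.4). The 17 ribosome assembly factors had 0.47 with 6 up and 1 down, led by *Tfb1m*, which methylates the small subunit RNA (3.29 to 7.77), with *Rpusd4* lowest (7.13 to 4.46). The 17 mitochondrial tRNA synthetases had 0.40 with 5 up and 0 down (*Mars2*, 3.59 to 9.39), and the 6 genes of mitochondrial transcription 0.69 with 4 up and 0 down (*Polrmt*, 7.93 to 13.5). *Tfam*, which packs mitochondrial DNA, was at 15.3 and 15.6. The 5 ribosomal proteins under other names had a median of 0.44, with *Dap3* at 7.52 and 11.2 and *Ptcd3* at 19.3 and 30.4. The 9 regulator genes had -0.17 with 3 up and 0 down, led by *Ppargc1b* (0.844 to 9.13) and *Ppargc1a* (0.210 to 1.08). Of all genes, 18.1% were over 1.5-fold up and 25.1% down here, and with 5 to 17 genes a list gives only a coarse share.

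For K36M against WT at D7, medians are given for the same lists without the regulators. The translation factors had -0.20 (4 over 1.5-fold down and 0 up), the assembly factors -0.16 (3 down and 2 up) and the tRNA synthetases -0.35 (4 down and 0 up). The transcription genes had -0.48 (2 down and 1 up) and the ribosomal proteins under other names -0.24 (1 down and 0 up). Of all genes, 13.6% were over 1.5-fold down and 20.8% up. *Lrpprc*, which stabilizes mitochondrial mRNA, was at 28.7 RPKM in WT and 13.6 in K36M cells, and *Gfm1* at 29.0 and 14.4. For KD against Ctrl at D2, the tRNA synthetases had a median of -0.31 with 6 of 17 over 1.5-fold down and 0 up (20.4% and 12.3% of all genes), led by *Fars2* (4.01 and 1.70), and the ribosomal proteins under other names had 0.08.

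*Mrps33*, *Mrps36* and *Mrpl23* stand apart. *Mrps33* was between 1.09 and 2.39 RPKM in the 6 adipogenesis libraries and between 11.3 and 17.4 in the 8 others, and *Mrps36*, whose product is now known as a subunit of 2-oxoglutarate dehydrogenase, between 0.346 and 1.59 and between 4.39 and 14.2. Over all genes with a mean RPKM of at least 1, 176 of 11899 (1.48%) were over 2-fold lower in each of the 6 adipogenesis libraries than in each of the 8 others, and 5 were over 2-fold higher. *Mrpl23* was at or below 1.63 RPKM in all 14 libraries. Windows of 32 bases that recur elsewhere in the mm9 genome made up 89.4% of *Mrps36* and 51.5% of *Mrps33* and also over 50% of *Mrpl23*, against a median of 2.70% over the 78 members, of which 9 were over 50% and 52 under 10%. The part of such windows in the differences of level between the experiments was not tested.

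**Figure D5:**
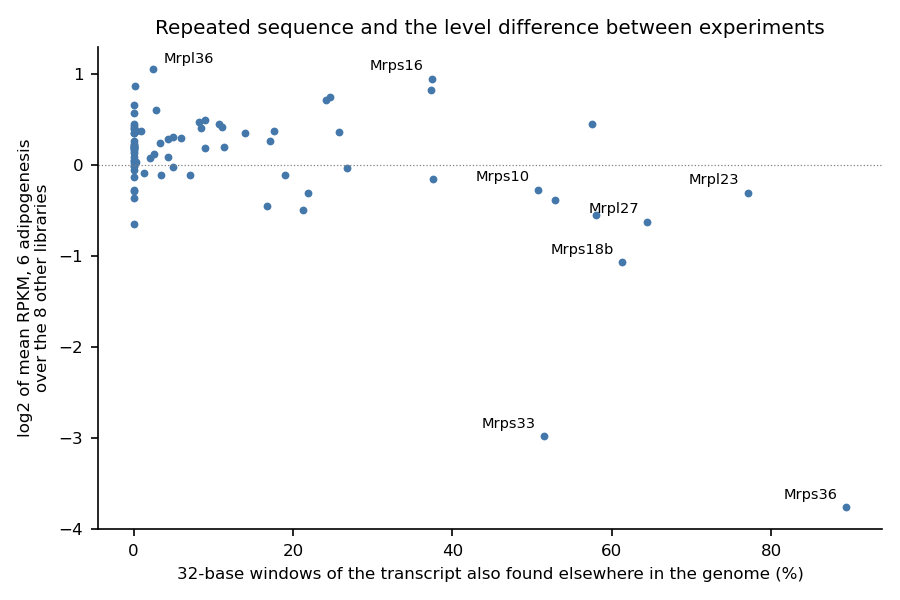
Share of the 32-base windows of each member's transcript that are also found elsewhere in the mm9 genome (horizontal, percent) against the log2 ratio of its mean RPKM in the 6 adipogenesis libraries to that in the 8 other libraries (vertical). *Mrps33* and *Mrps36* lie far below the others, at -2.98 and -3.76, and *Mrps18b* is next at -1.07.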

How the data were processed

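The authors deposited 1 RPKM file for each of the 14 RNA-Seq libraries, with 29082 RefSeq transcripts each. Per the labels the build is mm9 (CASAVA 1.8.2 and SICER are named), and the RNA-Seq mapper and counter are not given in the sources used here. Double-stranded cDNA entered the libraries, so strand was lost. The 20 ChIP-Seq samples were not analysed here. A RefSeq table gave symbols to 97.8% of transcripts, and GENCODE M1 (mm9) gave coordinates. Whole reads were recovered from the steps of the RPKM (tolerance 0.0001) for 332 of 333 listed genes tried and for each of the 11899 genes below. All genes means the 11899 with a mean RPKM of at least 1, and ratios use no pseudocount. Folds of 2 and 1.5 served as thresholds, since with 1 library per condition no test was possible. Genes were named by rule: the 5 highest and 3 lowest members, the 4 highest and 4 lowest ratios of 5 main contrasts, members over 2-fold (mean RPKM of at least 5), stalk and exit tunnel members and *Mrps36*, and for other lists up to 2 genes at either end. *Mrps9*, *Mrpl3*, *Mrpl46*, *Mrps33* and *Slc5a3* were added after their values were seen. Repeated windows of 32 bases were sought in the mm9 genome on both strands. The members, lists and contrasts were chosen with earlier results of these data known. Scripts used Python 3.11.15, numpy 2.4.6, pandas 2.3.3, scipy 1.17.1 and matplotlib 3.10.9, and were tested on simulated data.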

Additional observations from a re-analysis of the deposited data

Results flagged for a closer look

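Members are given here when the same change of day or ligand went opposite ways in control and perturbed cells, with both counting intervals clear of 0 on the log2 scale. With 1 library each, none of these differences was tested, and the values are log2 ratios of RPKM.

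From D0 to D2, 8 members did so between WT and K36M cells, against 13.2% of all genes by the same rule. *Mrpl15* had 0.57 in WT and -0.69 in K36M cells. *Mrpl19* had 0.22 and -0.65. *Mrpl45* had 0.20 and -0.32. *Mrpl9* had 0.55 and -0.53. *Mrps10* had 0.29 and -0.45. *Mrps18c* had 0.52 and -0.44. *Mrps30* had 0.37 and -0.60. *Mrps7* had 0.51 and -0.17.

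From D0 to D2, 5 members did so between Ctrl and KD cells, against 8.14% of all genes. *Mrpl12* had 0.47 in Ctrl and -0.28 in KD cells. *Mrpl47* had 0.37 and -0.61. *Mrps2* had 0.29 and -0.23. *Mrps23* had 0.42 and -0.29. *Mrps6* had 0.47 and -1.59.

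From D2 to D7, 5 members did so between WT and K36M cells, against 8.37% of all genes. *Mrpl48* had 0.41 in WT and -0.44 in K36M cells. *Mrpl52* had -0.54 and 0.37. *Mrps16* had 0.53 and -0.82. *Mrps2* had 0.19 and -0.41. *Mrps7* had 0.23 and -0.25.

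With Rosi against DMSO, 4 members did so between WT and K36M cells, against 9.95% of all genes. *Mrpl52* had -0.27 in WT and 0.34 in K36M cells. *Mrpl54* had -0.42 and 0.35. *Mrps24* had -0.22 and 0.40. *Mrps6* had 0.81 and -0.28.

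Each of these 4 counts is a smaller share of the 78 members than the share of all genes beside it.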

How the results depend on the processing

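Filters on low values, a pseudocount of 1, median-ratio scaling, and the mean over transcripts were tried, and, added after the data were seen, leaving out *Mrpl23*, *Mrps33* and *Mrps36*. The median of the members kept its sign in all 15 contrasts under each. Under median-ratio scaling it moved to 0.66 in WT cells from D0 to D2 (with 10 members over 2-fold up), to -0.51 for K36M against WT at D7, and to -0.090 for KD against Ctrl at D2. The 1 member over 2-fold down from D2 to D7 in WT cells became 0 with a mean RPKM of at least 5, with the pseudocount, and without the 3 genes, and the 2 down in KD against Ctrl at D2 became 1 without the 3 genes. No named member reversed. No paired analysis was possible because each condition has 1 library, and for the same reason no library could be left out. Depth limits single members to the intervals given: outside *Mrpl23*, *Mrps33* and *Mrps36* the lowest count was 50 reads.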
